A study of Homo sapiens with 12 samples.

Results

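The well expressed ZNF genes were the zinc finger genes with a symbol made of ZNF, a number and at most 1 further letter, and a mean normalised read count of at least 500 in both of 2 cell clones. They numbered 151 of the 478 ZNF genes and of the 15582 genes listed for both clones. The members were chosen by these measured levels, so every level below is a description without a test. RCH-ACV is an established human B-cell precursor acute lymphoblastic leukaemia line that carries the pre-B-cell receptor. From each of the 2 clones, sensitive cells were kept in vehicle (0.1% DMSO) and resistant cells were grown in increasing dasatinib, a tyrosine kinase inhibitor, up to 1 µM. RNA-seq covered 3 libraries in each of the 4 groups, 12 in all, and the replicates were RNA isolations of a subline at different time points. Each clone stands for a single selection from the same line.

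The level used was the authors' mean over the 6 libraries of a clone, resistant and sensitive together, of counts divided by size factors. It has no value per library, so it carries no error, the order of neighbouring genes could not be set against a spread, and sensitive and resistant cells were not compared. The clones were normalised separately, and their means added up to 19108037 over 15612 genes in clone 1 and to 24561485 over 16848 genes in clone 2. The depth of the single libraries is unknown. The lineage fitted the label: all 12 pre-B-cell markers were listed in both clones, from BLNK at 1023 and 1653 to IGLL1 at 9233 and 12009, with a summed mean of 55554 and 73583. The T cell genes CD3D, CD3E, CD3G and CD2, the erythroid genes HBA1 and HBB and the fibroblast genes COL1A2, COL3A1 and DCN were not listed, whereas COL1A1 stood at 145 and 214. Of 4 myeloid genes, MPO, LYZ and CD14 reached at most 17.1 (LYZ in clone 2), and CSF1R stood at 615 and 768.

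C2H2 zinc finger proteins are the largest class of DNA-binding proteins in the human genome. Each finger is a short loop in which a pair of cysteines and a pair of histidines hold a zinc ion, and fingers in a row read successive bases of DNA. Many of these proteins begin with a KRAB domain, which recruits the corepressor TRIM28 and through it the histone methyltransferase SETDB1 and HP1 proteins, and a main target of the KRAB class is the DNA of transposable elements. The genes multiplied by tandem duplication, above all on chromosome 19, where they lie in clusters of related copies.

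The finger itself is the feature these genes share, and the coding bases of the finger nearest the protein's start are shown for 7 members. ZNF22 and ZNF146 had the highest levels per length with at least 2 fingers, off chromosome 19 and in a chromosome 19 cluster, ZNF576 is its counterpart in the stretch from ZNF780A to ZNF234, ZNF142 and ZNF91 hold the most fingers, and ZNF417 and ZNF587 are near copies of each other. Capitals mark the codons of the pair of cysteines and the pair of histidines that the finger pattern matched. In ZNF91 an unmarked cysteine codon (tgt) between the marked pair would also fit the pattern. In ZNF417 and ZNF587 the same holds for the unmarked histidine codon (cat) before the last. The marked residues of these 3 genes are therefore not necessarily those that hold the zinc.
ZNF22: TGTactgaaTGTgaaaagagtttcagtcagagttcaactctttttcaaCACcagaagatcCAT
ZNF146: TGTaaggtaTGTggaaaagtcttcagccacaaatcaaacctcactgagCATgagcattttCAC
ZNF576: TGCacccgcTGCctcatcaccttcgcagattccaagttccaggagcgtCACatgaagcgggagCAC
ZNF142: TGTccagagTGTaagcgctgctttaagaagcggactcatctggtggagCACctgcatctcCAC
ZNF91: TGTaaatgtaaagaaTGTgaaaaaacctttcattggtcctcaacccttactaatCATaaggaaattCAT
ZNF417: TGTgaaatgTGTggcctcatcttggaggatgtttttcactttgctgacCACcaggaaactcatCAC
ZNF587: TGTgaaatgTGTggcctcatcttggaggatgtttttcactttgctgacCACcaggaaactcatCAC
These bases lie, in GRCh38, in exon 2 of ZNF22 at chr10:45003537-45003599 on the plus strand, in exon 3 of ZNF146 at chr19:36236492-36236554 on the plus strand and in exon 3 of ZNF576 at chr19:43598851-43598916 on the plus strand. The stretch of ZNF142 lies in exon 5 at chr2:218649353-218649415 and that of ZNF91 in exon 4 at chr19:23362283-23362351, both on the minus strand. Those of ZNF417 (exon 3, chr19:57909933-57909998, minus strand) and ZNF587 (exon 3, chr19:57858692-57858757, plus strand) differed at 0 of 66 bases. All are coding sequence.

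ZNF genes reached the minimum in 31.6% of cases (151 of 478), and all genes listed in both tables did so in 45.7% (7117 of 15582). The members' means ran from 503 to 5308 with a median of 809 in clone 1 and from 575 to 7039.7 with a median of 1028 in clone 2. Together the 151 genes held 0.815% of the summed means of clone 1 and 0.808% of those of clone 2. Levels of different genes were ranked after division by the length of a reference transcript, and undivided means are given as each gene's value against the minimum. Per length the members' median was 204 per kb in clone 1 and 257 per kb in clone 2, and the median of all genes at the minimum was 411 and 531 per kb. The ZNF genes below the minimum had medians of 57.6 and 75.6 per kb.

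**Figure D1:**
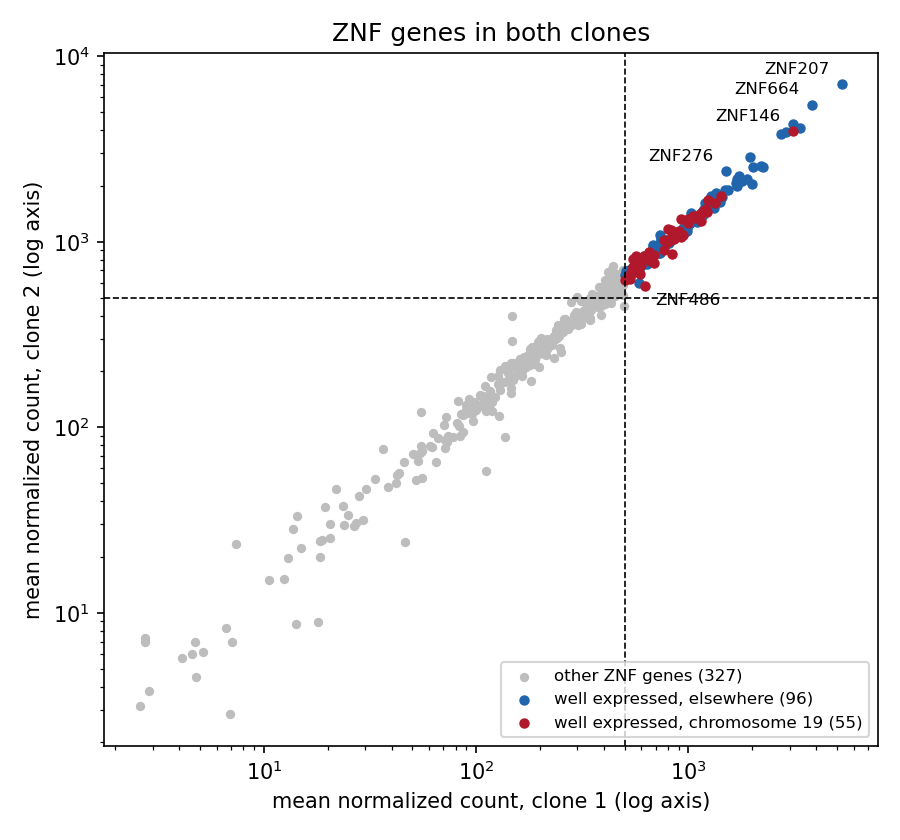
Mean normalised count of the 478 ZNF genes in clone 1 (horizontal, log axis) and clone 2 (vertical, log axis), each point a gene and each value the authors' mean over 6 libraries; dashed lines mark the minimum of 500. The 151 members fill the upper right corner, 96 of them off chromosome 19 (blue) and 55 on it (red).

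At the edge of the rule, the members with the lowest clone 1 means were ZNF85 (503, with 625 in clone 2), ZNF511 (504 and 664) and ZNF397 (507 and 665). Just outside lay ZNF74 (494 and 518), ZNF280D (493 and 702) and ZNF526 (489.6 and 592). A further 61 ZNF genes reached the minimum in clone 2 alone, and the member count by the rule was thus set by clone 1.

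ZNF207, which encodes a microtubule-binding protein that loads BUB3 at kinetochores, had the highest level of the class. Its mean was 5308 in clone 1 and 7039.7 in clone 2, or 2786 and 3695 per kb. By the mean of both clones ZNF22 followed at 1068 and 1495 per kb, and ZNF146, whose protein consists of little else than fingers, at 819 and 1045 per kb. The level of ZNF207 per length was thus more than any other member's in both clones. Of the 50-base stretches of its transcript, 20.7% also occur in a transcript of another gene. Whether reads from these were counted in its mean is unknown.

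In order of the mean of both clones, next came ZNF664 (751 and 1069.5 per kb), ZNF276 (665 and 1057 per kb) and ZNF428 (750.04 and 947 per kb). ZNF330, a nucleolar protein gene, stood at 670.03 and 933 per kb, and ZNF618 at 740.4 and 838 per kb. ZNF326, a subunit of the complex that couples RNA polymerase II elongation to splicing, was at 619 and 798 per kb, and ZNF581 at 628 and 645 per kb. For ZNF581, 16.1% of the 50-base stretches of its transcript also occur in transcripts of other genes. Only ZNF146, ZNF428 and ZNF581 of these 10 genes lie on chromosome 19. None of the 10 holds a KRAB-like stretch, and ZNF207, ZNF428 and ZNF326 hold a single match to the finger pattern and ZNF330 none.

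**Figure D2:**
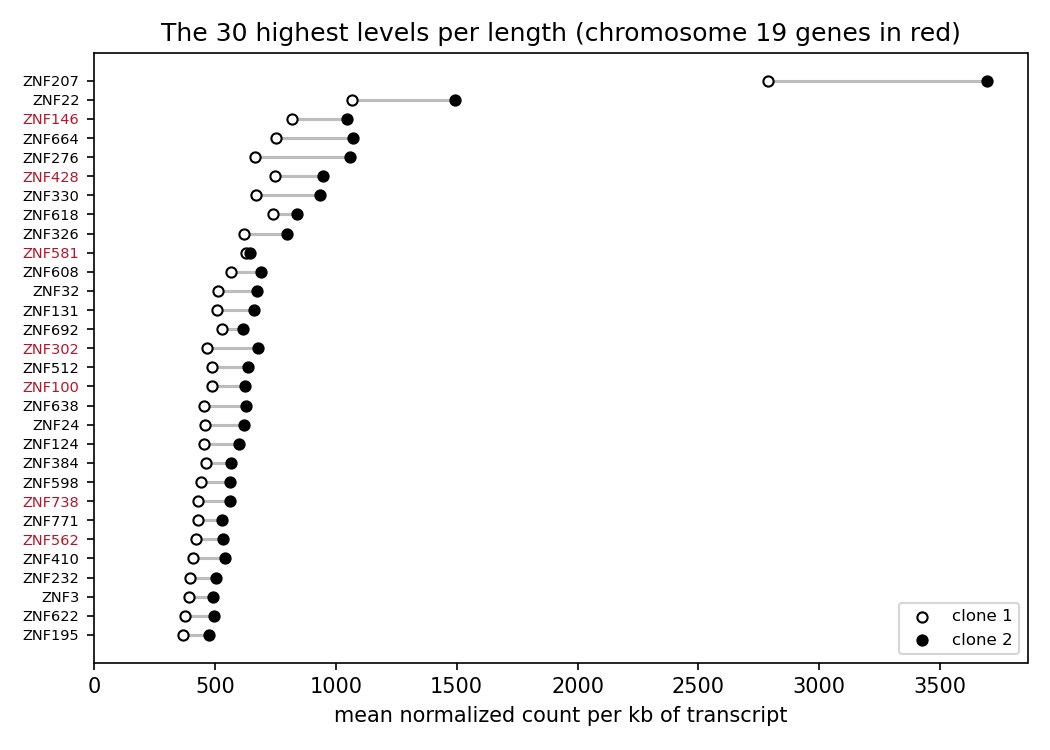
Mean normalised count per kb of transcript for the 30 members with the highest values, in clone 1 (open) and clone 2 (filled), with names of chromosome 19 genes in red. ZNF207 stands apart at 2786 and 3695 per kb, and from ZNF608 downwards the levels decline in small steps.

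Several members with a known role beyond the class were picked for that role, with their values in view. ZNF384, a recurrent fusion partner in B-cell precursor leukaemia, stood at 464 and 565 per kb. ZNF410, an activator of the chromatin remodeller gene CHD4, stood at 408 and 539.7 per kb, although 83.5% of its transcript's 50-base stretches also occur in transcripts of other annotated genes (82.5% in AC005520.1). ZNF638, which takes part in the silencing of unintegrated retroviral DNA, was at 454 and 629.8 per kb, and ZNF598, the ubiquitin ligase that senses collided ribosomes, at 441.3 and 562 per kb. ZNF217, an oncogene amplified in breast cancer, was at 337 and 494 per kb, ZNF622, a factor of large ribosomal subunit assembly, at 376 and 497 per kb, and ZNF445, a regulator of genomic imprinting with a transcript of 18299 bases, at 70.2 and 87.6 per kb. Genes with roles in translation and chromosome segregation were therefore listed under the same symbol pattern as the DNA-binding repressors.

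Chromosome 19 held 240 of the 478 listed ZNF genes (50.2%) and 55 of the 151 members (36.4%). The share of listed genes that reached the minimum was 22.9% on chromosome 19 and 40.3% (96 of 238) elsewhere. Chromosome 7 followed with 11 members of 30 listed ZNF genes, chromosome 1 with 9 of 18 and chromosome 16 with 8 of 30. The share varied among smaller sets, from 5 of 7 on chromosome 15 to 2 of 11 on the X chromosome. Per length the members' medians were 199 and 256.5 per kb on chromosome 19 and 204 and 264 per kb elsewhere.

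Neighbouring ZNF genes with at most 5 other protein-coding genes between them were taken as a cluster where 3 or more stood together. In the RefSeq gene order this gave 13 clusters on chromosome 19, named by their outer genes, which held 226 listed ZNF genes and 52 members. The other 3 members on the chromosome, ZNF444, ZNF507 and ZNF574, lay outside the clusters. The share of members differed widely between the clusters, from 15 of 30 in ZNF101 to ZNF254 to 0 of 19 in ZNF283 to ZNF180.

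**Figure D3:**
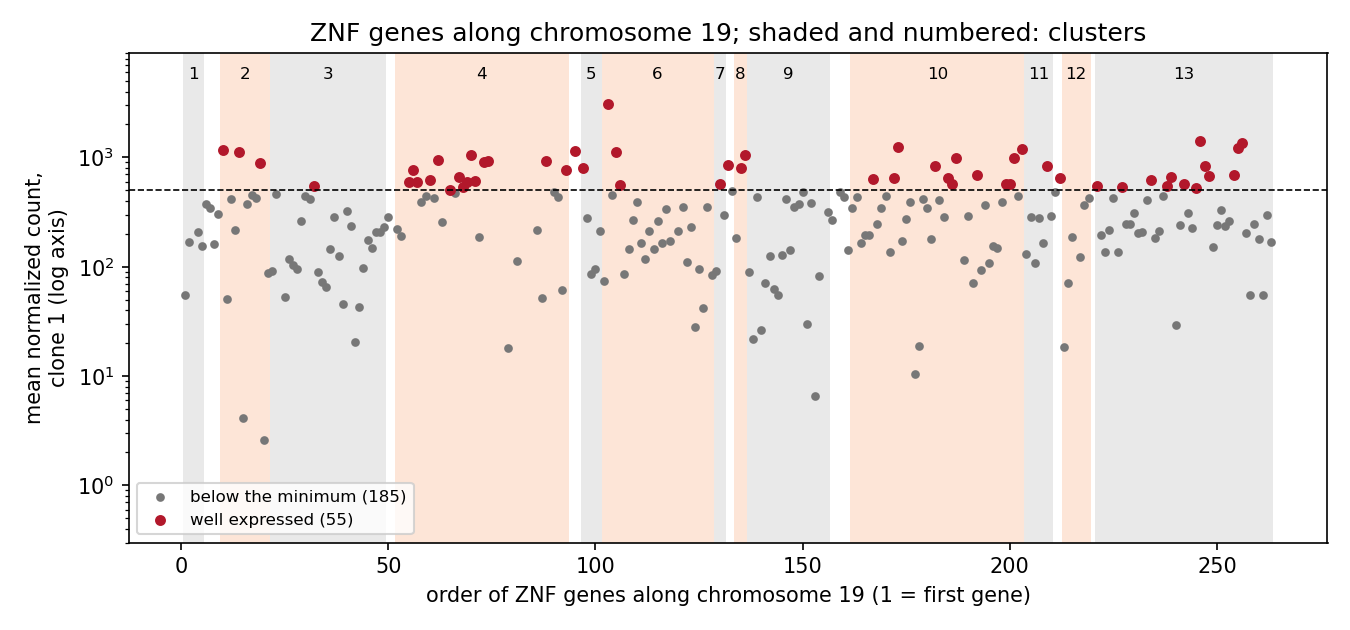
Mean normalised count in clone 1 (log axis) of the 240 listed ZNF genes of chromosome 19, placed by their order among the chromosome's ZNF genes in the reference; bands with alternating shades number the 13 clusters and the dashed line marks 500. Cluster 4 (ZNF101 to ZNF254) has 15 members above the line, and cluster 9 (ZNF283 to ZNF180) has none.

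From ZNF780A to ZNF234 the reference holds 18 ZNF genes and 94 other protein-coding genes, so it is a longer stretch that takes in the cluster ZNF575 to ZNF428 whole and parts of 2 others. All 18 were listed and 3 were members. ZNF574 had means of 853 and 1038, ZNF576 of 802 and 995, and ZNF428 of 1059 and 1337. None of the 3 holds a KRAB-like stretch, and none was above the all-gene median in clone 2 relative to clone 1, with log2 ratios of −0.08, −0.05 and −0.03.

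The other 15 genes of the stretch had medians of 129 in clone 1 and 196 in clone 2. ZNF780A itself stood at 295 and 419, and ZNF234 at 353 and 451. ZNF526 (489.6 and 592), ZNF45 (437 and 561) and ZNF224 (413 and 572) missed the minimum in clone 1 and passed it in clone 2. Per length ZNF221 was the lowest of the stretch in clone 1 and clone 2, at 10.5 and 11.5 per kb, with means of 26.5 and 29.3. ZNF575, next to ZNF576 and ZNF428 in the same cluster, stood at 183 and 272. Beyond the stretch, ZNF780B, the neighbour of ZNF780A, was a member at 565 and 806. The cluster ZNF283 to ZNF180, which contains ZNF45, ZNF221 to ZNF225 and ZNF234, had medians of 127 and 170.2 over its 19 listed genes. Per length its highest was ZNF227 (157 and 209 per kb) and its lowest ZNF112 (1.99 and 2.49 per kb). None of its genes was a member, but ZNF227 (means of 480 and 638) and ZNF235 (386 and 507), like ZNF45 and ZNF224, passed the minimum in clone 2.

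The cluster ZNF101 to ZNF254 lies towards the centromere and holds primate-expanded genes, among them ZNF91 and ZNF93, which repress SVA and LINE-1 retrotransposons. ZNF91 had means of 925 and 1066, or 168 and 194 per kb, and ZNF93 means of 594 and 668, or 224 and 252 per kb. Per length ZNF100 (489 and 622 per kb), ZNF738 (431 and 561 per kb) and ZNF737 (328 and 381 per kb) had the highest levels of the cluster in both clones, with means of 899 and 1145, 1052 and 1370.1, and 942 and 1094. ZNF431, at 38.3 and 45.5 per kb, had the lowest level per length of all 151 members in both clones, with means of 532 and 632. The means of the remaining members were 919.6 and 1318 for ZNF43, 768 and 903 for ZNF253, 765 and 1020.03 for ZNF254, 666 and 812 for ZNF714, 626 and 575 for ZNF486, 609 and 821 for ZNF493, 599 and 749 for ZNF708 and 593 and 745 for ZNF506, beside ZNF85. Their levels per length lay between 97.8 and 219 per kb in clone 1. ZNF486 was the only member of the cluster with a lower deposited mean in clone 2 than in clone 1. The members of the cluster had a median of 13 fingers.

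In ZNF577 to ZNF331, 12 of 41 listed genes were members. Per length, ZNF766 (278 and 352.4 per kb), ZNF480 (262 and 352.3 per kb), ZNF761 (244 and 328 per kb) and ZNF331 (239 and 298 per kb) had the highest levels in both clones. Their means were 648 and 821 for ZNF766, 1241 and 1669 for ZNF480, 992 and 1331 for ZNF761 and 1203 and 1501 for ZNF331. The other 8 lay between 126.03 and 187 per kb in clone 1. Their means were 996 and 1266 for ZNF320, 829.7 and 1162 for ZNF83, 686 and 852 for ZNF160, 654 and 879.8 for ZNF28, 638 and 819.7 for ZNF614, 576 and 739 for ZNF765, 575 and 750.1 for ZNF468 and 565 and 696 for ZNF525. For ZNF320, 99.5% of the 50-base stretches of its chosen transcript also occur in transcripts of other genes, and 93.3% in those of ZNF468. In the other direction, 9.91% of the stretches of the ZNF468 transcript were shared with any gene.

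In ZNF264 to ZNF446, 13 of 43 listed genes were members, and all 13 hold a KRAB-like stretch. Per length, ZNF544 had the highest level of these in both clones, 346 and 409.9 per kb, with means of 1226 and 1454. ZNF274 (269 and 302 per kb), ZNF814 (266 and 343 per kb) and ZNF548 (255 and 324 per kb) also exceeded 250 per kb in both clones, with means of 689 and 773, 835.5 and 1079, and 539 and 685.5. ZNF274 is known for recruiting SETDB1 to the 3′ ends of ZNF genes themselves. ZNF587 and ZNF8 had means of 1422 and 1766 and of 1339 and 1614 but, on their long transcripts, levels of 207 and 257 per kb and of 147 and 177 per kb. The means of the others were 668.5 and 784 for ZNF417, 658 and 798 for ZNF551, 617 and 835 for ZNF550, 569 and 836 for ZNF776, 549 and 811 for ZNF211, 547 and 734 for ZNF264 and 529 and 651 for ZNF587B. ZNF264 had the lowest level per length, 44.96 and 60.4 per kb. The near copies shown above fall here: 40.1% of the 50-base stretches of ZNF417 also occur in other genes' transcripts (37.7% in ZNF587), and 38.2% of those of ZNF587B (19.6% in ZNF814).

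Among the smaller clusters, ZNF317 to ZNF846 held 3 members of 12 listed genes: ZNF317 (1165 and 1472), ZNF266 (1128 and 1410.1) and ZNF562 (892 and 1122). ZNF565 to ZNF573 held 3 of 26, with means of 3095 and 3951 for ZNF146, 1126 and 1400.3 for ZNF260 and 562 and 729 for ZNF529. Per length ZNF146 exceeded ZNF260 (199 and 247 per kb) and ZNF529 (129.7 and 168 per kb). ZNF653 to ZNF791 held 1 member of 27 listed genes, ZNF700 (546 and 729.6). Its share of 3.70% was the lowest among clusters with any member.

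The proteins were read from the reference transcripts of 148 members. Fingers matching the pattern of 2 cysteines and 2 histidines numbered 1443, of which 1247 were 21 residues from the first cysteine to the last histidine. The median was 9 fingers a protein, 12 for members on chromosome 19 and 8 for the others, against 11 for the ZNF genes below the minimum. ZNF142 and ZNF91 had the most, 31 each. ZNF330, ZNF738 and ZNF839 had none, and 9 members had 1 match: ZNF207, ZNF326, ZNF395, ZNF428, ZNF598, ZNF608, ZNF609, ZNF704 and ZNF706. The pattern does not see fingers of another spacing or of another class, nor those of transcripts other than the one chosen. Where more than 1 cysteine or histidine fitted, it could take the outer one, so some lengths above 21 may be too long.

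The share of listed ZNF genes that were members was 50.7% (38 of 75) for proteins with 1 to 5 fingers and 33.1% (48 of 145) with 6 to 10. It was 24.7% (37 of 150) with 11 to 15 and 27.5% (22 of 80) with 16 or more. Across the 148 members, Spearman's rho between finger number and level per length was −0.36, and across all 151 it was −0.70 between transcript length and level per length. Both are descriptions across genes, and the level per length contains the length.

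**Figure D4:**
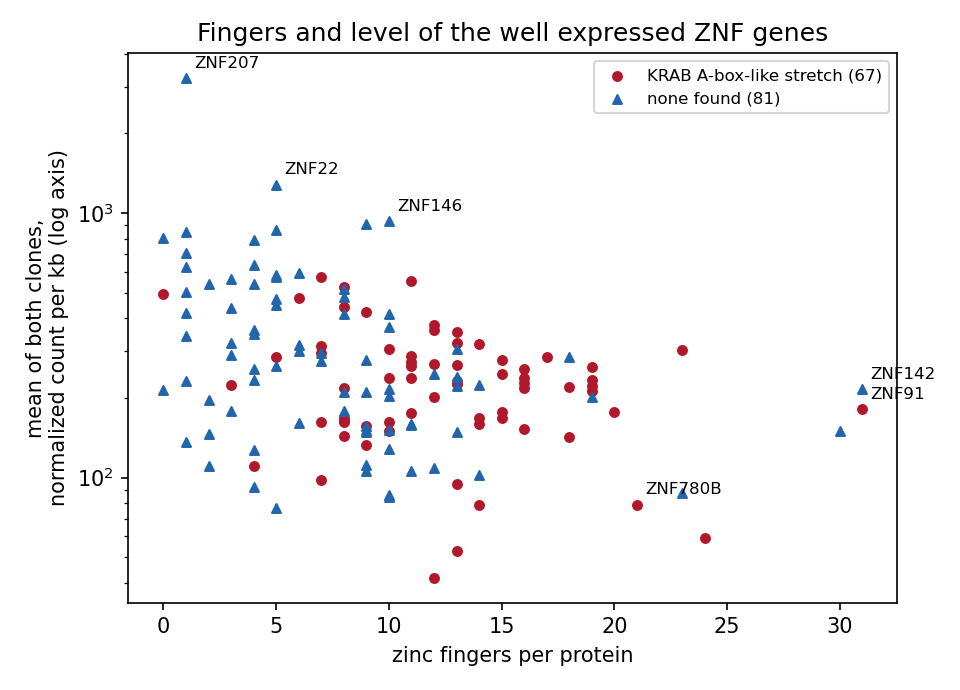
Number of fingers per protein (horizontal) and mean of both clones of the normalised count per kb (vertical, log axis) for the 148 members with a protein, by whether the looser KRAB A-box-like pattern was found. The 10 members with the highest levels have 10 fingers or fewer, and the 2 with 31 fingers, ZNF142 and ZNF91, lie near the median level.

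A stretch like the KRAB A box, the part that binds TRIM28, was found in 58 members by one pattern and in 67 by another, looser one with fewer fixed residues, and 55 matched both. By the looser pattern 43 of the 55 members on chromosome 19 and 24 of the 93 with a protein elsewhere held it. Of the listed ZNF genes, 27.1% (67 of 247) with a match to the looser pattern and 37.7% (81 of 215) without one were members. Of these 81, ZNF614, ZNF529 and ZNF510 matched the stricter pattern alone, so 78 matched neither. On chromosome 19 the order was the other way, with 26.5% (43 of 162) against 17.4% (12 of 69), and elsewhere it was 28.2% (24 of 85) against 47.3% (69 of 146). The patterns ask for a tryptophan and missed 17 of the 19 listed genes of the cluster ZNF283 to ZNF180. A gene without a match may therefore still have a KRAB domain. These 17 genes, none of them members, are among the 69 on chromosome 19 without a match. The contrast on that chromosome thus depends largely on these misses. It gives no clear order between genes with and without a KRAB domain. A SCAN-like stretch, found in proteins that pair with one another, occurred in 8 members: ZNF202, ZNF232, ZNF263, ZNF274, ZNF397, ZNF444, ZNF445 and ZNF496.

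RNA levels were read alongside for a list of genes set down as partners of KRAB zinc finger proteins, and no protein was measured. Whether each acts with these proteins in the cells was not tested. All 30 genes of this list were listed in both clones, 28 at the minimum in both, with medians of 504 per kb in clone 1 and 729.9 per kb in clone 2. CBX3, an HP1 protein gene, stood at 4414 and 5783 per kb, TRIM28 itself at 3888 and 5912 per kb and UHRF1, which guides maintenance DNA methylation, at 3891 and 4009 per kb. Each exceeded every member of the ZNF class in both clones. The lowest were DNMT3B, a de novo DNA methyltransferase, at 86.7 and 103 per kb, MORC3 at 88.6 and 124 per kb and TRIM24 at 147 and 196 per kb. DNMT3B and MORC3 were the 2 below the minimum, with means of 376 and 445 and of 376 and 527.

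The means of the clones ran together over the members, with a Pearson correlation of 0.99 of their log2 values across the 151 genes, which were all selected for high values in both. With each clone's means divided by their sum, the median log2 ratio of clone 2 to clone 1 was −0.02 for the members and −0.003 for all 7117 genes at the minimum. On the deposited scale those medians were 0.34 and 0.36, the shift between the separately normalised clones. On the scaled values 57 of the 151 members were above 0. This count was not taken over the 7117 genes, whose median was itself just below 0. The members' range ran from −0.48 to 0.31, and 0 members lay beyond 0.5 in either direction. The quartiles were −0.071 and 0.041 for the members and −0.075 and 0.067 for the 7117 genes, so a narrow spread was not particular to the members.

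ZNF486 had the lowest scaled ratio, −0.48, with deposited means of 626 in clone 1 and 575 in clone 2. It was followed by ZNF581 (−0.33), ZNF496 (−0.32), ZNF395 (−0.31) and ZNF274 (−0.20). ZNF276 had the highest ratio, 0.31, with means of 1507 and 2396, and then ZNF33B (0.22), ZNF211 (0.20), ZNF776 (0.19) and ZNF217 (0.19). On the deposited scale ZNF486 alone of these 10 had a lower mean in clone 2. Over 10% of the transcript's 50-base stretches also occur in other genes' transcripts for ZNF395 (41.7%), ZNF581 (16.1%) and ZNF776 (10.4%). The ratios hold 1 value per clone and mix sensitive with resistant cells, so whether they exceed the spread between libraries could not be tested.

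The promoters were examined in the 250 bases before the RefSeq start, available for 128 of the 151 members. The letters CCGGAAG, which ETS family factors bind, occurred on either strand in 31.3% of the members' windows and in 29.9% of those of 268 other listed ZNF genes. They occurred in 11.8% of 15842 protein-coding genes' windows and in 8.82% of all 27305. Stretches around a match are shown for the 4 members of highest level per length whose stretch overlaps no annotated exon, with the matched letters in capitals.
ZNF302: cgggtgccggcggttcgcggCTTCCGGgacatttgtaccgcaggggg
ZNF638: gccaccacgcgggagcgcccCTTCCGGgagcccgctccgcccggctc
ZNF124: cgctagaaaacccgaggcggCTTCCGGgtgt
ZNF384: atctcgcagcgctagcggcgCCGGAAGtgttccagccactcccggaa
The stretches, in GRCh38.p14, are those of ZNF302 (chr19:34677590-34677636, plus strand), ZNF638 (chr2:71331636-71331682, plus strand), ZNF124 (chr1:247172021-247172051, minus strand) and ZNF384 (chr12:6689563-6689609, minus strand). The matched letters begin between 11 and 214 bases before the start, and CTTCCGG is the same motif read from the other strand. The levels per length of these genes were 465 and 677 per kb for ZNF302, 454 and 629.8 per kb for ZNF638, 455 and 598 per kb for ZNF124 and 464 and 565 per kb for ZNF384.

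Of the other letters searched on both strands, GGGCGG of the SP family occurred in 64.1% of the members' windows, 61.6% of the other ZNF windows and 56.0% of protein-coding windows. CCAAT occurred in 40.6%, 49.6% and 34.5% of them, and TATAAA in 4.69%, 2.24% and 9.23%. The YY1 letters CAAGATGGC were found in 1.56% and the palindromic NRF1 motif in 2.34% of the members' windows, that is 2 and 3 of 128 windows. In the other ZNF windows they were found in 0.373% and 2.61%, and in protein-coding windows in 0.555% and 1.48%. The members' windows held a median of 19 CpG sites and 63.6% G and C. Those of the other ZNF genes held 17 and 60.0%, and protein-coding windows 17 and 62.4%. A match is only a run of letters, no motif of the set contains another, and many ZNF genes arose by duplication, so their windows are not independent.

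Near copies limit how far single members can be read. The median member shared 0.749% of the 50-base stretches of its transcript with other genes' transcripts, 5.86% on chromosome 19 and 0% elsewhere, and 61 members shared none. The share was over 10% for 25 members and over 50% for ZNF320, ZNF410, ZNF286A (68.9%) and ZNF286B (58.5%), the last 2 mainly with each other. ZNF252P, ZNF271P, ZNF286B and ZNF767P are annotated as pseudogenes. How the authors treated reads that match several genes is not stated in the methods or notes, so the levels of these members are uncertain. Antisense and readthrough entries next to members included ZNF32-AS2 at 160 and 203, ZNF32-AS1 at 117 and 162, ZNF664-FAM101A at 168 and 213 and ZNF252P-AS1 at 24.7 and 29.9.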

How the data were processed

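RNA-seq of 12 RCH-ACV libraries was deposited as 2 tables, 1 per clone. The authors isolated total RNA with a column kit and prepared stranded mRNA libraries. Tools credited in the submitters' processing notes, with no order, are DESeq2, bedtools 2.19.0, BWA (0.7.7-r441 and 0.6.2-r126), FastQC 0.10.1, SAMtools and Picard 1.107, and the build is hg19. For annotation, counter and strandedness of counting, the answer is not given in the sources used here. The deposited signal is the authors' mean, over 6 libraries, of counts divided by size factors, and the depth per library is unknown. The other columns hold the authors' comparison of resistant with sensitive cells (log2 fold change, error, statistic, p-values and direction) and were not used.

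Members and lists were chosen with earlier results of these data known. Symbols were matched to RefSeq GRCh38.p14 (all 478) and GENCODE 29 (477), with the transcript of longest coding sequence as length and protein. Fingers were counted as C-x(2,4)-C-x(12)-H-x(3,5)-H. Gene order came from RefSeq and no hg19 coordinate was used. Shared 50-base stretches were exact matches on the same strand. The text names the 10 members highest per length, 3 genes on each side of the minimum, the 5 highest and 5 lowest clone ratios, all members in chromosome 19 clusters with at least 3 members, the stretch from ZNF780A to ZNF234, finger extremes, 3 highest and lowest partners and markers not listed. Python 3.11.15 and pandas 2.3.3 were used, and the counting steps were tested on simulated data.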

Additional observations from a re-analysis of the deposited data

How the results depend on the processing

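No paired analysis was possible because only means over the 6 libraries of a clone were used, and for the same reason no library could be left out and no value per library tested. The count of members was 281 with a minimum of 250, 53 with a minimum of 1000, 212 with the minimum in at least 1 clone and 173 after scaling the tables to the same sum. The share of members on chromosome 19 was 22.6% at a minimum of 1000, 44.1% at 250 and 41.1% with the same number of genes picked by level per length, of which 112 were members. The median clone ratio turned from −0.02 to 0.34 (log2) on the deposited scale and was −0.017 after scaling by the median gene. The members' median was 809 and 1028 when not divided by length and 445 and 557 per kb of coding sequence, a setting chosen after seeing the data, as was the looser KRAB pattern (67 against 58 members). Clusters with at most 2 or 10 genes between neighbours held 49 or 54 members. The transcript chosen sets each level per length, and a gene expressed from another transcript would have another value.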

Other observations

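Other zinc finger families of the tables were set beside the ZNF genes by the same minimum of 500 in both clones. ZBTB genes, which join the fingers to a BTB domain, had 15 of 38 listed genes at the minimum, with ZBTB1 highest at 462 per kb in clone 1. KLF genes had 4 of 13, with KLF13 at 339.7 per kb, and PRDM genes 4 of 7, with PRDM2 at 211 per kb. ZSCAN genes, relatives of the ZNF class with a SCAN domain, had 3 of 17, with ZSCAN18 at 441.4 per kb, and ZKSCAN genes 2 of 7, with ZKSCAN8 at 184 per kb. Of 15 listed ZFP genes, a symbol that also covers CCCH fingers, 4 reached the minimum, with ZFP91 at 537 per kb. The medians over the genes at the minimum in clone 1 ran from 154 per kb for PRDM to 316 per kb for KLF, around the 204 per kb of the ZNF members. Differences between families were not tested.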
